A study of Mus musculus with 8 samples.

Results

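The 37 genes described here encode proteins of the lysosome: 7 membrane proteins and channels, 9 cathepsins and other proteases, 8 glycosidases, 3 sulfatases, 5 proteins of lipid handling with a thioesterase among them, 4 parts of the proton pump and the transcription factor Tfeb. They were chosen by gene symbol, and each was read from the probe set that was brightest on average over the 8 samples, which gave a value for 37 of 37 genes, out of 19938 named genes on the array. RNA from primary mouse embryonic fibroblasts, connective tissue cells taken into culture from embryos, was hybridised to Affymetrix arrays, 8 in all. The cells came from 2 lines, line A (MEF10) and line B (MEF16). Without tamoxifen both lines expressed PKM2, the pyruvate kinase isoform of dividing cells, and with tamoxifen both expressed PKM1, the isoform of muscle and brain. Each of the 4 groups (line A PKM2, line A PKM1, line B PKM2, line B PKM1) held 2 samples. The Pkm allele, the recombinase that tamoxifen acts on, and the tamoxifen dose and time are not given in the sources used here. No cells given tamoxifen without the isoform switch were analysed here, so the drug and the isoform cannot be told apart. Each line stands for itself. Nothing in the labels says that the 2 samples of a group were grown apart, so the p-values here rest on a spread between samples that may be technical.

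The lysosome is the acidic compartment in which the cell breaks down proteins, glycans, lipids and nucleic acids. Its hydrolases work at low pH, which the vacuolar proton pump maintains, and its membrane carries heavily glycosylated proteins that resist digestion. Many lysosomal genes share a promoter element with a CACGTG core, the CLEAR element, which TFEB and its relatives bind when mTORC1 signalling at the lysosome surface is low. Glb1 encodes the lysosomal beta-galactosidase whose activity is the stain known as senescence-associated beta-galactosidase, and its transcript is given sample by sample for that reason.

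The letters of this element stand in fewer than 50% of the promoters found for these genes. RefSeq promoters on GRCm38.p6, from 250 bases before to 50 after the start, were found for 32 of the 37 genes, and not for Npc1, Asah1, Atp6v1h, Ctsb and Ctsh. The E-box letters CACGTG, which read the same on both strands, stood in a promoter of 15 of the 32 genes (46.9%), against 8.09% of 27025 genes with a promoter in the table. The longer core TCACGTG, which contains CACGTG and was searched on both strands, stood in 13 of the 32 (40.6%), against 4.29% of all genes. These 13 were Ctsa, Cln3, Ctsd, Mcoln1, Lamp1, Atp6v0d1, Glb1, Naglu, Gaa, Sgsh, Arsa, Atp6v1a and Gla. Counted by promoter, the longer core stood in 35.1% of the promoters of these genes and in 3.77% of all promoters in the table. A match is a description of the letters and no evidence of binding. The sequences are printed 5′ to 3′ on the strand of the gene, with the longer core in capitals. Glb1 is shown because of the stain. Gla is shown because it was the gene of the 37 that passed the test, a choice made after its values were seen. The other 5 have the longer core nearest to the start.
Glb1: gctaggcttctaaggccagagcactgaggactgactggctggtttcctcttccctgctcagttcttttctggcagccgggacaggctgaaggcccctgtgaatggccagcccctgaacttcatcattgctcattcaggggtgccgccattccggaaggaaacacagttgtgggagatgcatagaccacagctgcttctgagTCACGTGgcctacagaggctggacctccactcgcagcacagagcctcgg
Gla: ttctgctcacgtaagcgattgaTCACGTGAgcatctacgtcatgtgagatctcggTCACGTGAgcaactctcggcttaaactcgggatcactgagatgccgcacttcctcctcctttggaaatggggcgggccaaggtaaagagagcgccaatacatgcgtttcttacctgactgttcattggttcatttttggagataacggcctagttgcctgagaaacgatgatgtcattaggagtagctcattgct
Lamp1: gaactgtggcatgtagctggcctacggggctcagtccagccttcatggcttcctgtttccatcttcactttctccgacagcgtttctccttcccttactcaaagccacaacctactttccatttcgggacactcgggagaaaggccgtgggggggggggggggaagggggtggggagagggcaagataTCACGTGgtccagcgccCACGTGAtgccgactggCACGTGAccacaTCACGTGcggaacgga
Ctsa: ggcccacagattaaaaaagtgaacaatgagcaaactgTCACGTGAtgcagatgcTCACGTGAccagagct
Atp6v0d1: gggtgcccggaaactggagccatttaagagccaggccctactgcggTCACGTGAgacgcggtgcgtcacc
Arsa: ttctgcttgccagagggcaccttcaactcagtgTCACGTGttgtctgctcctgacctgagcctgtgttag
Sgsh: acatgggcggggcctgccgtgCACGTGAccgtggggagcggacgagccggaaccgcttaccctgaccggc
Glb1 (chr9:114400828-114401077, plus strand) and Lamp1 (chr8:13158911-13159160, plus strand) are the 250 bases before the start, as is Gla (chrX:134601006-134601255, minus strand). The remaining stretches are 70 bases that reach from 50 before the start: Ctsa at chr2:164833723-164833792 on the plus strand, Atp6v0d1 at chr8:105566045-105566114, Arsa at chr15:89477405-89477474 and Sgsh at chr11:119355491-119355560, these 3 on the minus strand. Lamp1 has 4 copies of CACGTG, Gla and Ctsa 2 each. The copy nearest to the start lies at -43 in Glb1 and at -188 in Gla, where 0 is the start itself.

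Levels are given on the log2 scale, and each difference is a log2 fold change with its standard error (SE) from limma, a linear model that pools information on the spread across genes. The level of 1 gene's probe set is not comparable with that of another. Across the 19938 genes the 2 samples of a group correlated at 0.9974 and 0.9956 in line A and at 0.9907 and 0.9894 in line B. Of 12 fibroblast markers, 10 were above the 75th percentile of every array, and 0 were below the array median on all of them. Of 18 markers of blood cells, mostly of macrophages, which are rich in lysosomes, 0 were above that percentile on all 8 arrays. On every array 11 of the 18 were below the median. These counts take the lines together. Lyz2 was at 6.97 and 7.23, then 7.97 and 7.77 in line A. In line B it was at 9.25 and 9.22, then 9.71 and 9.08, above the percentile on each line B array. The description and extraction fields name mammary tumors, which the titles and sources do not. Of 15 epithelial and mammary markers, 0 were above the 75th percentile on all 8 arrays and 10 were below the median on every array.

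Most of the lysosomal genes were a little higher with tamoxifen, and 1 of them passed the test over both lines. Gla, which encodes alpha-galactosidase A, rose 1.41-fold (limma, adjusted p = 0.0208 over all genes); the other 36 did not pass. An adjusted p of 0.05 was passed by 1.32% of all genes, by 0.808% upwards and 0.512% downwards. The log2 fold change was above 0 for 33 of the 37, against 44.6% of all genes and 46% of the genes left after the 30% dimmest were set aside. The median was 0.16, against -0.01 over all genes. Without line B PKM1 replicate 1 the count was 25 of 37 (46.9% of all genes) and the median 0.06. At an unadjusted p under 0.05, 11 of the 37 were higher (5.53% of all genes) and 0 lower (4.32%). The genes whose 4 samples with tamoxifen all lay above the 4 without were Gla, Ctsl, Ctsf and Lipa, 4 of 37 against 2.56% of all genes, and 0 lay wholly below (2.74%).

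**Figure D1:**
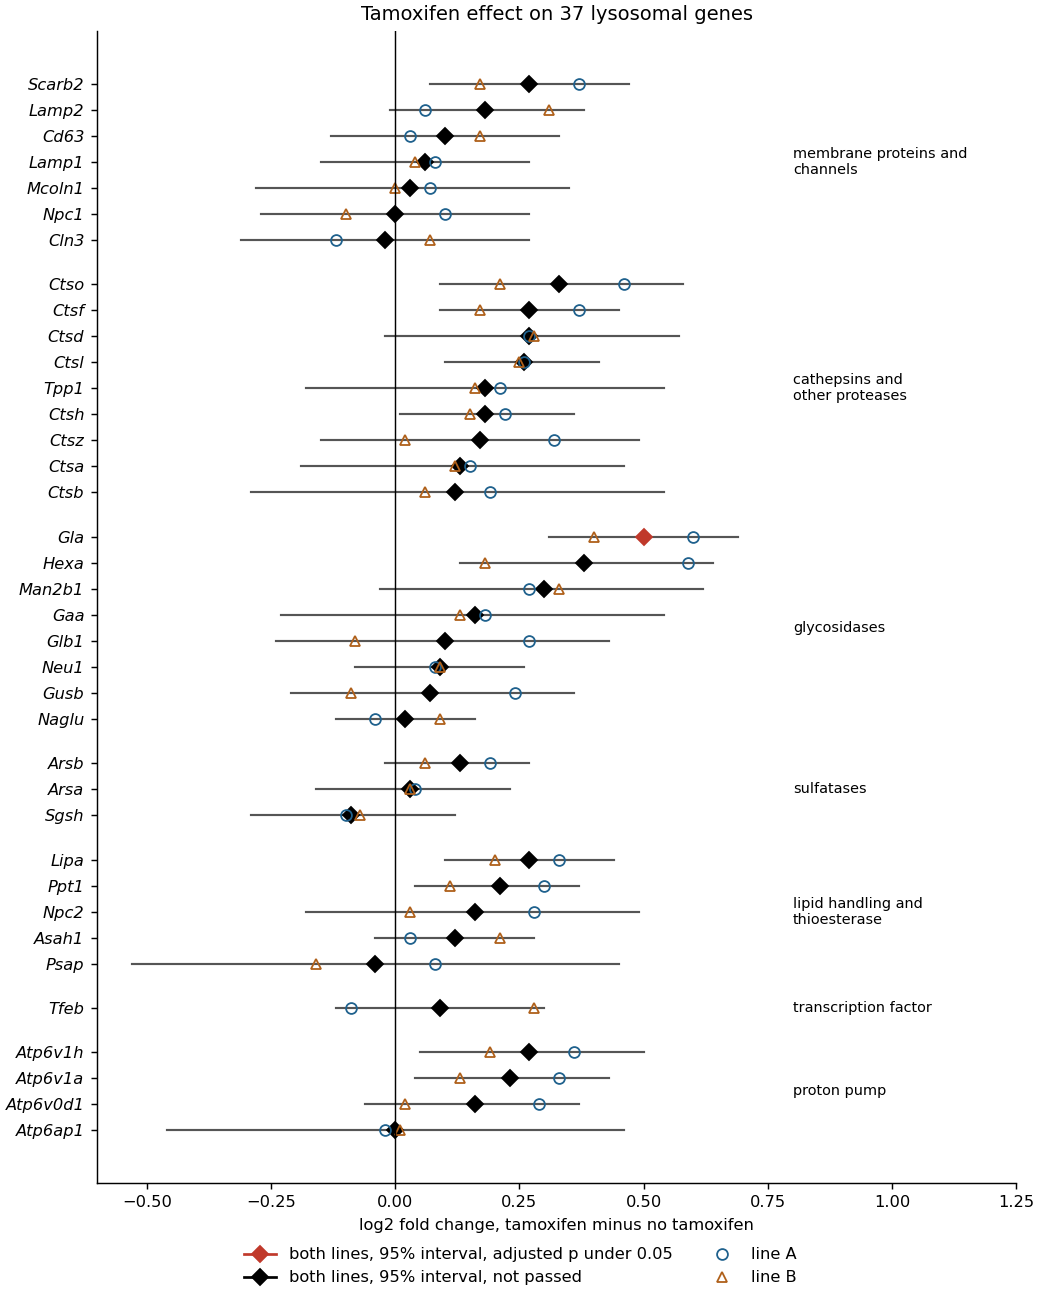
Log2 fold change with tamoxifen for the 37 lysosomal genes, ordered by role on the vertical axis, with the log2 fold change on the horizontal axis. Filled diamonds are the estimates over both lines with their 95% intervals, the red one marks Gla, which passed the test, and open circles and triangles are the estimates in line A and line B. Of the 37 estimates over both lines, 33 lie above 0, and Gla at 0.50 is farthest from it.

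Among the 8 glycosidases, which remove sugars from glycans and glycolipids, Gla rose and 7 did not pass. Alpha-galactosidase A removes terminal galactose from glycolipids, and its loss causes Fabry disease. Without tamoxifen Gla was at 9.29 and 9.61 in line A and at 9.40 and 9.52 in line B. With tamoxifen it was at 10.06 and 10.05 in line A and at 9.85 and 9.87 in line B. The 4 samples with tamoxifen lay above all 4 without, in each line and across the lines. The means were 9.45 ± 0.14 without and 9.95 ± 0.11 with tamoxifen (SD, n = 4), a difference of 0.50 (SE 0.08, 95% interval 0.31 to 0.69). The call was lost without any of 3 single samples of line A, with adjusted p-values of 0.0518 without line A PKM2 replicate 2, 0.11 without line A PKM1 replicate 1 and 0.113 without line A PKM1 replicate 2. Over the alternative fits, leaving aside the one of every probe set, the log2 fold change ran from 0.42 to 0.55.

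Hexa, the alpha subunit of beta-hexosaminidase, was at 9.10 and 9.08 in line A PKM2, 9.75 and 9.60 in line A PKM1, 9.30 and 9.59 in line B PKM2 and 9.80 and 9.44 in line B PKM1. Line A was separated by treatment and line B was not. The difference over both lines was 0.38 (SE 0.12, adjusted p = 0.217). Without 1 sample at a time it ran from 0.31 to 0.50, and it was 0.50 without line B PKM1 replicate 2, the lower of its group.

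Glb1, the gene of beta-galactosidase, did not pass in any comparison. In line A PKM2 it was at 8.64 and 8.50, and in line A PKM1 at 8.93 and 8.76. In line B PKM2 it was at 8.55 and 8.76, and in line B PKM1 at 8.95 and 8.20. The line A samples with tamoxifen were both above those without. In line B the highest and the lowest of the 4 values were the 2 samples with tamoxifen, so the groups overlapped. The group means were 8.57 ± 0.10 and 8.84 ± 0.13 in line A and 8.66 ± 0.15 and 8.57 ± 0.53 in line B (SD, n = 2), without and with tamoxifen in turn. Line A differed by 0.27 and line B by -0.08, and the difference over both lines was 0.10 (SE 0.15, adjusted p = 0.9, 95% interval -0.24 to 0.43). Leaving out 1 sample at a time moved that value between -0.02 and 0.28. The gap of 0.75 between the line B PKM1 samples was larger than any difference between group means of this gene.

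Naglu, which degrades heparan sulfate, was at 7.17 and 7.06 in line A PKM2, 7.05 and 7.09 in line A PKM1, 7.12 and 7.17 in line B PKM2 and 7.21 and 7.25 in line B PKM1. These values lie close to the array medians of 7.17 to 7.24, and the difference over both lines was 0.02. Gaa, the acid alpha-glucosidase that degrades glycogen, was at 8.16 and 7.91, 8.32 and 8.11, 7.93 and 8.48, and 8.74 and 7.92 in the same order of groups. Its line B samples overlapped widely, and the difference was 0.16. The other glycosidases of the list were the sialidase Neu1 (0.09), the beta-glucuronidase Gusb (0.07) and the alpha-mannosidase Man2b1 (0.30, SE 0.15). The median of the 8 was 0.13, and 8 of 8 were above 0.

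**Figure D2:**
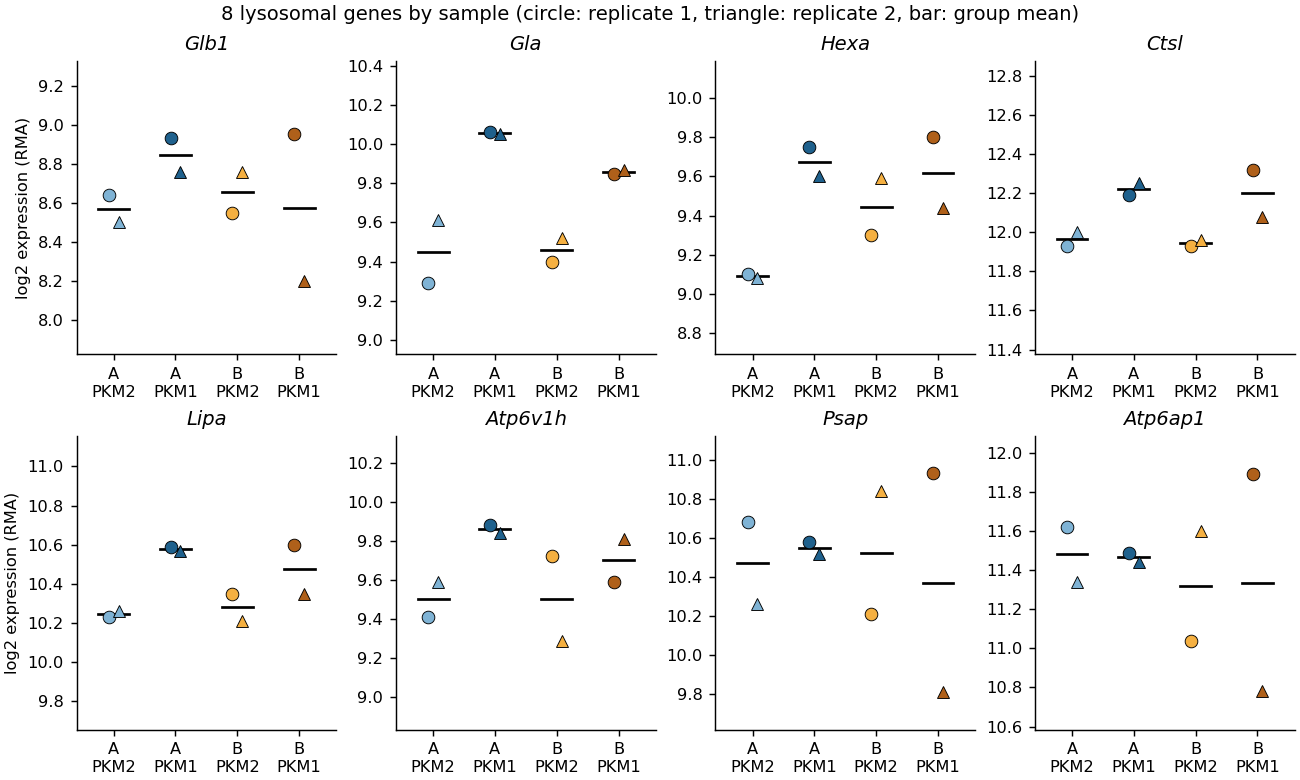
Log2 expression of Glb1, Gla, Hexa, Ctsl, Lipa, Atp6v1h, Psap and Atp6ap1 in the 8 samples, 1 panel per gene with the 4 groups on the horizontal axis and a vertical axis of the same length in each panel. Circles are replicate 1, triangles replicate 2 and bars group means; Gla is separated by tamoxifen in both lines, whereas Glb1, Psap and Atp6ap1 have their widest spread in line B PKM1.

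All 9 cathepsins and other proteases had a log2 fold change above 0, between 0.12 and 0.33 with a median of 0.18, and 0 of 9 passed. Ctsl, a cysteine protease, was at 11.93 and 12.00 without and 12.19 and 12.25 with tamoxifen in line A. In line B it was at 11.93 and 11.96 without and 12.32 and 12.08 with tamoxifen. The samples with tamoxifen lay above those without in both lines, and the difference was 0.26 (SE 0.07, adjusted p = 0.153). Ctsf, another cysteine protease, was at 7.66 and 7.51, then 7.90 and 8.00 in line A, and at 7.63 and 7.76, then 7.97 and 7.77 in line B. Its 2 sets of 4 samples were also separate, though only just, with a difference of 0.27 (SE 0.08, adjusted p = 0.207).

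Ctso had the largest difference of the proteases, 0.33 (SE 0.11, adjusted p = 0.279). It was at 7.83 and 7.76 in line A PKM2, 8.30 and 8.21 in line A PKM1, 8.06 and 7.52 in line B PKM2 and 8.04 and 7.96 in line B PKM1. The overlap came from line B PKM2 replicate 1. Without 1 sample at a time the difference ran from 0.25 to 0.47, and it was 0.47 without that replicate. Leaving out the highest sample without tamoxifen had to enlarge the difference, so that value is no test. Ctsh, an aminopeptidase of the cathepsin family, was at 8.28 and 8.56, then 8.68 and 8.61 in line A, and at 8.13 and 8.08, then 8.34 and 8.17 in line B, a difference of 0.18 (SE 0.08). Each line was separated by treatment, but line B as a whole lay lower than line A with tamoxifen. Ctsb, an abundant cysteine protease of fibroblasts, was at 11.65 and 11.41, 11.73 and 11.72, 11.25 and 11.72, and 12.05 and 11.04 in the order of groups given for Gaa. Here the 2 samples of line B PKM1 were the highest and the lowest of all 8, and the difference was 0.12 (SE 0.19). The aspartic protease Ctsd differed by 0.27 (SE 0.13), the protective protein Ctsa by 0.13, Ctsz by 0.17 and the tripeptidyl peptidase Tpp1 by 0.18.

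Of the 5 genes of lipid handling, 0 passed and 4 were above 0, with a median of 0.16. Lipa encodes the acid lipase that frees cholesterol and fatty acids from lipoproteins. It was at 10.23 and 10.26, then 10.59 and 10.57 in line A, and at 10.35 and 10.21, then 10.60 and 10.35 in line B. The line A groups stood apart by more than 0.3, and the lowest line B PKM1 sample only just cleared the highest sample without tamoxifen. The difference was 0.27 (SE 0.08, adjusted p = 0.18). Ppt1, which removes palmitate from proteins, was at 10.28 and 10.34, then 10.62 and 10.61 in line A, and at 10.31 and 10.13, then 10.32 and 10.34 in line B. The difference was 0.21 (SE 0.07, adjusted p = 0.317), and most of it lay in line A. Psap, the precursor of the saposins that activate sphingolipid hydrolases, was at 10.68 and 10.26, then 10.58 and 10.52 in line A, and at 10.21 and 10.84, then 10.93 and 9.81 in line B. Its difference was -0.04 (SE 0.22), and without 1 sample at a time it ran from -0.24 to 0.21. The acid ceramidase gene Asah1 differed by 0.12 and Npc2, which carries cholesterol inside the lysosome, by 0.16.

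The 7 membrane proteins and channels had a median of 0.06, with 6 above 0 and 0 passing. Scarb2 encodes LIMP-2, which carries glucocerebrosidase to the lysosome. It was at 9.23 and 9.43, then 9.68 and 9.72 in line A, and at 9.61 and 9.27, then 9.57 and 9.66 in line B. Only line A was separated by treatment, and the difference was 0.27 (SE 0.09, adjusted p = 0.297). Lamp2, an abundant membrane glycoprotein that takes part in autophagy, was at 12.46 and 12.48, then 12.50 and 12.56 in line A, and at 12.35 and 12.05, then 12.44 and 12.59 in line B. Here line B showed the larger difference, 0.31 (SE 0.12), and the value over both lines was 0.18. Cln3, whose loss causes a juvenile neurodegenerative disease, was at 7.68 and 7.49, then 7.45 and 7.49 in line A, and at 7.35 and 7.81, then 7.91 and 7.38 in line B. Its difference was -0.02 (SE 0.13). Lamp1 differed by 0.06, the tetraspanin Cd63 by 0.10, the calcium channel Mcoln1 by 0.03 and the cholesterol exporter Npc1 by 0.00.

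The 3 sulfatases had a median of 0.03. Arsb, which degrades dermatan and chondroitin sulfate, was at 9.24 and 9.27, then 9.45 and 9.44 in line A, and at 9.26 and 9.29, then 9.28 and 9.38 in line B. The difference was 0.13 (SE 0.06, adjusted p = 0.579). It is the only gene of the 37 with more than 1 probe set, and the dimmer one gave 0.07 (SE 0.13). Sgsh, a heparan sulfate sulfatase, was at 7.81 and 7.49, then 7.58 and 7.52 in line A, and at 7.51 and 7.85, then 7.64 and 7.57 in line B. Its difference of -0.09 (SE 0.09) was the lowest of the 37. Arsa, arylsulfatase A, differed by 0.03. Its samples lay between 6.65 and 7.01, below the array medians, where differences are compressed.

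The 4 parts of the proton pump had a median of 0.19, and 0 passed. Atp6v1h, a regulatory subunit of the part that splits ATP, was at 9.41 and 9.59, then 9.88 and 9.84 in line A, and at 9.72 and 9.29, then 9.59 and 9.81 in line B. Line A was separated and line B was not, and the difference was 0.27 (SE 0.10, adjusted p = 0.354). Atp6ap1, an accessory protein of pump assembly, was at 11.62 and 11.34, then 11.49 and 11.44 in line A, and at 11.04 and 11.60, then 11.89 and 10.78 in line B. The estimate was -0.00, with a 95% interval of -0.46 to 0.46, and it rested on line B PKM1 samples that lay 1.11 apart. Atp6v1a, the catalytic subunit, differed by 0.23 (SE 0.09) and Atp6v0d1, of the membrane part, by 0.16.

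Tfeb, the transcription factor, was at 7.26 and 7.02, then 7.07 and 7.02 in line A, and at 6.97 and 6.85, then 7.24 and 7.14 in line B. The line B samples were separated by treatment and the line A samples were not. Its difference was 0.09 over both lines (SE 0.09, adjusted p = 0.837), -0.09 in line A and 0.28 in line B (SE 0.11, adjusted p = 0.924). These levels are near the array medians. TFEB activity is set mainly by its place in the cell, which a transcript level does not show.

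Line A and line B were then taken apart. In line A 0 of the 37 passed (0.502% of all genes), the median was 0.21 and 32 of 37 were above 0 (44.6%). Gla had an estimate of 0.60 in line A (SE 0.12, adjusted p = 0.0798) and Hexa 0.59 (SE 0.14, adjusted p = 0.174). At an unadjusted p under 0.05, 10 genes were higher in line A (4.99%) and 0 lower (3.11%). Both samples with tamoxifen lay above both without for 25 of the 37 (21.3%), and below for 1, Cln3 (26.2%). When the model was fitted to the 4 samples of line A only, Ctso, Gla and Hexa passed, as did 2.72% of all genes.

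In line B 0 of the 37 passed (0.0201%), the median was 0.12 and 31 of 37 were above 0 (48.2%). Gla was at 0.40 (SE 0.12, adjusted p = 0.671). At an unadjusted p under 0.05, 4 were higher (2.46%) and 0 lower (2.37%). The line B samples did not overlap, with tamoxifen higher, for 10 of the 37 (12%): Lamp2, Ctsf, Ctsh, Ctsl, Gla, Naglu, Asah1, Ppt1, Lipa and Tfeb. For 0 of the 37 they did not overlap with tamoxifen lower (12.9%). The median in line B rested on single samples: it was -0.05 without line B PKM1 replicate 1, where 16 of 37 were above 0 (52.6% of all genes), and 0.29 without line B PKM1 replicate 2, where 36 were (45.7%). Without line B PKM2 replicate 1, 20 of 37 were above 0 (43.8%).

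Both lines together, 27 of the 37 had a log2 fold change above 0 in each line (26% of all genes), and 1, Sgsh, below 0 in each (33.2%). The samples were separated upwards in each line for 7 genes, Lamp2, Ctsf, Ctsh, Ctsl, Gla, Ppt1 and Lipa, against 4.48% of all genes. The estimate was the larger one in line A for 26 of 37 (48.9%). When the difference of the 2 effects was itself tested in limma, 0 of the 37 and 0% of all genes passed. At an unadjusted p under 0.05 it gave 1 of the 37 with the higher effect in line B, Tfeb, with a difference of 0.38 (SE 0.16, adjusted p = 1), against 1.33% of all genes, and 0 with the lower one (1.5%). The difference was -0.41 for Hexa (SE 0.20) and -0.36 for Glb1. The median difference over the 37 was -0.07, and it ran from -0.26 without line B PKM1 replicate 1 to 0.10 without line B PKM1 replicate 2.

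The spread between replicates in line B was wide for these genes. The median absolute gap between the 2 samples of a group was 0.15 in line A PKM2, 0.05 in line A PKM1, 0.29 in line B PKM2 and 0.36 in line B PKM1, where over all genes it was 0.11, 0.08, 0.15 and 0.15. For 96 other measured genes of the lysosomal pathway, described below, this median was 0.17 in line B PKM2 and 0.22 in line B PKM1. Among those 96, it was 0.33 in line B PKM1 for 11 proton pump subunits and 0.27 for 16 hydrolases. The probe sets of the 37 were also brighter, with a median level of 9.59 in line B PKM1 replicate 1 against 7.35 over all genes. No set of genes of like brightness was compared. In line B PKM1, 19 of the 37 differed by over 0.3 between replicates (20.9% of all genes), and in line B PKM2 18 did (20.7%). In line A the counts were 5 (7.4%) and 0 (3.16%), without and with tamoxifen. The largest gaps of line B PKM1 were 1.12 for Psap, 1.11 for Atp6ap1, 1.01 for Ctsb and 0.82 for Gaa. At the other end the gap was 0.01 for Asah1, 0.02 for Gla and 0.03 for Ppt1. For 27 of the 37 the gap in line B PKM1 was larger than the tamoxifen difference in line B (68.6% of all genes).

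These gaps ran mostly one way. In line B PKM1, replicate 1 was above replicate 2 for 29 of the 37 (42.4% of all genes), and in line B PKM2 for 10 (42.7%). Replicate 1 was the higher in line B PKM1 and replicate 2 the higher in line B PKM2 for 24 of the 37 (30.8%), Glb1, Psap, Ctsb, Atp6ap1 and Gaa among them. The opposite held for 5 (31.1%): Lamp2, Scarb2, Ppt1, Cd63 and Atp6v1h. For 8 the gap had the same sign in both groups (38.1%). Replicates carry numbers only as names, and equal numbers do not pair samples across groups. Relative to each gene's mean over the 8 samples, the median of the 37 was 0.21 in line B PKM1 replicate 1 and -0.13 in line B PKM1 replicate 2. In line B PKM2 it was -0.13 and 0.03, and in line A -0.04 and -0.12 without and 0.15 and 0.11 with tamoxifen. By this median, line B PKM1 replicate 2 lay at the level of samples without tamoxifen, but single genes went both ways. In it Gla at 9.87 and Lamp2 at 12.59 were above both line B PKM2 samples. Psap at 9.81 and Ctsb at 11.04 were below both.

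**Figure D3:**
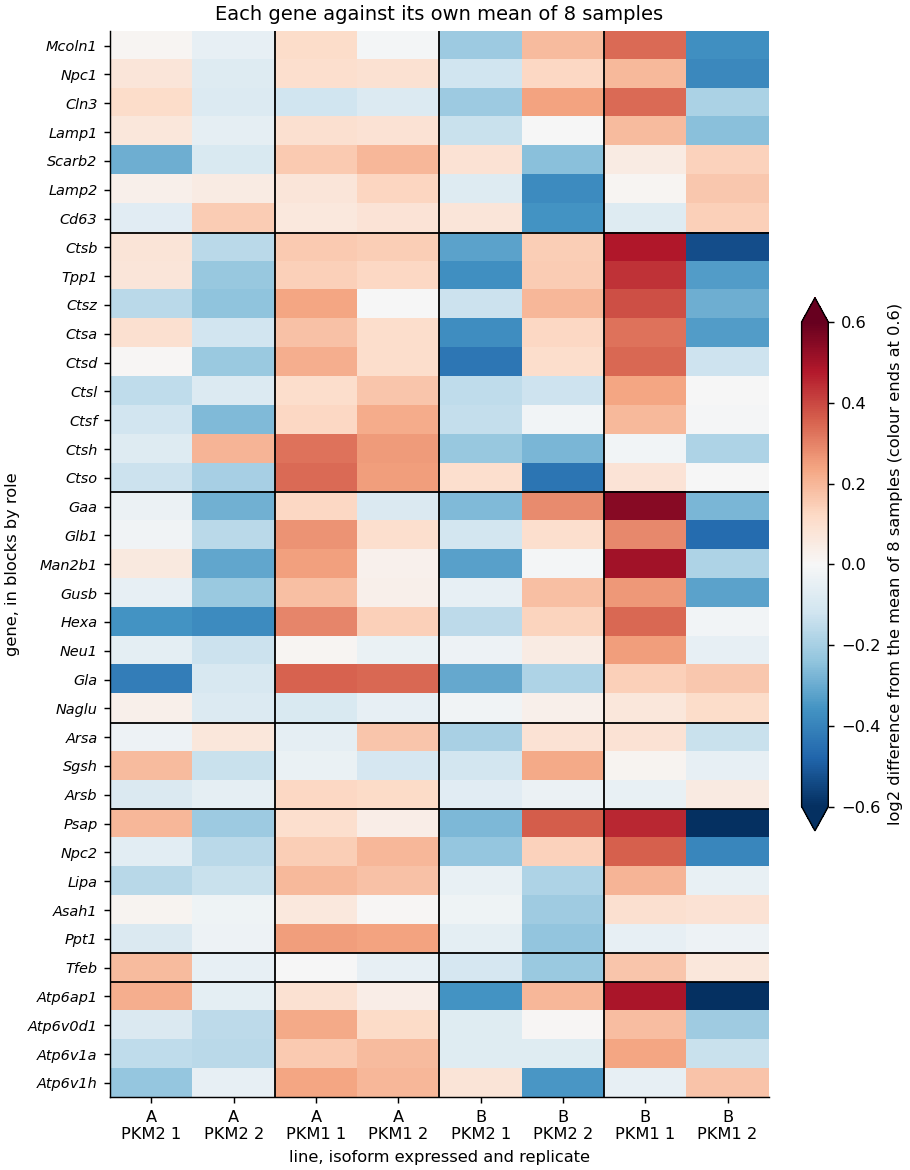
Deviation of each of the 37 genes (rows, by role) from its own mean over the 8 samples (columns, by group and replicate), in log2 units, with the colour scale ending at 0.6 in either direction. Line A PKM1 and line B PKM1 replicate 1 are mostly above the mean, and line B PKM1 replicate 2 is mostly below it.

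Other genes varied within the groups too. The leading axis of variation within groups, over all genes, held 61.8% of the within-group variance, with scores of -0.45 and 0.45 in line B PKM2 and 0.49 and -0.49 in line B PKM1. In line A the scores were within 0.22 of 0. The loading on that axis was above 0 for 28 of the 37 (75.7%), against 51% of all genes. Split by promoter, the median gap in line B PKM1, replicate 1 minus replicate 2, was 0.44 for the 13 genes with TCACGTG and 0.25 for the 19 without. In line B PKM2 it was -0.28 and -0.08. The median tamoxifen difference over both lines was 0.10 with the letters and 0.18 without. The letters thus went with signed medians farther from 0 among these genes and not with a larger tamoxifen difference. Such a median shows the direction of the gaps and not their width, and the description comes with no test. Over all genes, replicate 1 was above replicate 2 in line B PKM1 for 47.7% of those with the letters and 42.7% of those without, and in line B PKM2 for 46.5% and 42.6%. There the signed medians were not farther from 0 with the letters. They were -0.01 with and -0.04 without in line B PKM1, and -0.03 and -0.04 in line B PKM2. The median tamoxifen difference over all genes was 0.00 with the letters and -0.01 without.

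**Figure D4:**
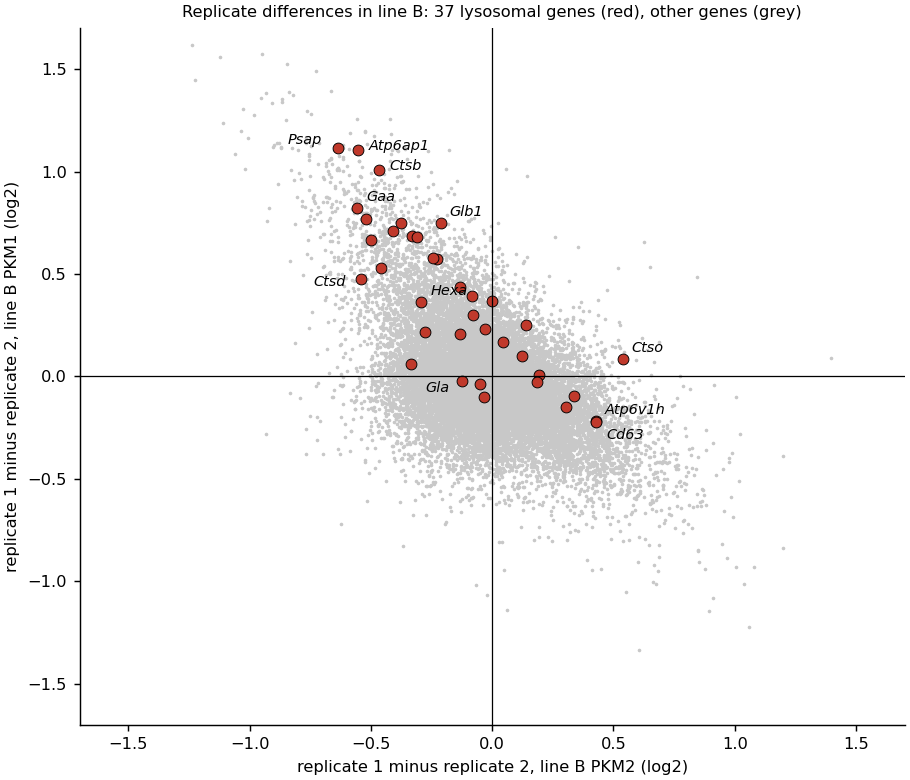
Replicate 1 minus replicate 2 in line B PKM2 (horizontal axis) against the same in line B PKM1 (vertical axis), in log2 units, with the 37 lysosomal genes in red and all other genes in grey. Of the 37, 24 lie at the upper left, above 0 in line B PKM1 and below 0 in line B PKM2, and 5 in the lower right.

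Between the lines 0 of the 37 passed, both without tamoxifen (0.326% of all genes) and with it (0.532%). Line B minus line A had a median of 0.00 without tamoxifen, with 20 of 37 above 0 (55%). The samples of line B lay wholly above those of line A for 6 genes (17%) and wholly below for 4 (11.7%). At an unadjusted p under 0.05, 1 was higher (3.17%) and 2 were lower (2.03%). With tamoxifen the median was -0.09, with 8 of 37 above 0 (57.6%), and it ran from -0.29 to 0.10 when either line B PKM1 sample was left out. Without line B PKM1 replicate 2, 28 of 37 were above 0 (52.5% of all genes), so the direction turned on that sample. Of the 37, 3 lay wholly above (22.4%) and 7 wholly below (15.3%), and at an unadjusted p under 0.05, 0 were higher (3.5%) and 2 lower (3.22%). Those past the adjusted threshold over all genes were 0.181% higher and 0.351% lower. For Ctsh, line B minus line A was -0.32 without (SE 0.12, adjusted p = 0.765) and -0.39 with tamoxifen (SE 0.12, adjusted p = 0.384). With tamoxifen Ppt1 was at -0.29 (SE 0.10, adjusted p = 0.483) and Naglu at 0.16 (SE 0.09). Without tamoxifen Hexa was at 0.36 (SE 0.14) and Lamp2 at -0.27 (SE 0.12). The comparisons between the lines use the same samples as those of tamoxifen within each line.

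Outside the 37 genes, the lysosomal protease Ctss did differ between the lines. It was the only 1 past the threshold among 96 other measured genes of the lysosomal pathway, described below. Ctss, a cathepsin of antigen-presenting cells, was at 6.40 and 6.45, then 6.99 and 6.61 in line A, and at 8.12 and 7.96, then 8.30 and 8.10 in line B. All line B samples lay above all line A samples, by 1.61 without tamoxifen (SE 0.14, adjusted p = 0.00406) and by 1.40 with it (SE 0.14, adjusted p = 0.00547). Of the 18 blood cell markers 1 passed upwards without tamoxifen (0.186% of all genes) and 2 with it (0.181%). In all, 16 were above 0 in line B against line A without tamoxifen (55% of all genes), with a median of 0.36. With tamoxifen 18 of 18 were (57.6%), with a median of 0.48. Lyz2, the macrophage lysozyme, passed in both, by 2.14 (SE 0.19) and 1.53 (SE 0.19), and Laptm5 passed with tamoxifen, by 0.81 (SE 0.13). Some fits that left 1 sample in a group lost these calls, and in those fits fewer genes passed over the whole array too. Without tamoxifen, those of Ctss and Lyz2 were lost when either line A PKM2 sample was left out (largest adjusted p 0.0776 for each). With tamoxifen, they were lost without either line A PKM1 sample, with adjusted p-values of up to 0.107 for Ctss and 0.224 for Lyz2. The call of Laptm5 was lost in 6 of 8 such fits, those without any 1 of the line A samples or of the line B PKM1 samples (adjusted p up to 0.453). The estimates for Ctss stayed between 1.53 and 1.69 without and between 1.21 and 1.59 with tamoxifen. The group medians of the 18 were 6.51 and 6.46 in line A and 6.81 and 6.90 in line B. More cells of a type and more RNA per cell cannot be told apart in such samples, and the part of these cells in the lysosomal values was not tested. With tamoxifen over both lines the median of the 18 was 0.03, and 0 passed.

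Other genes of the lysosomal pathway were listed by role and not by how they moved, but with earlier results of these data known. Of these 104 genes, 96 were measured. With tamoxifen over both lines 2 of the 96 rose (0.808% of all genes), 0 fell (0.512%), the median was 0.11 and 79 (82.3%) were above 0, against 44.6% of all genes. Aga, aspartylglucosaminidase, which splits the bond between glycan and asparagine, was one of them. It was at 11.04 and 11.10, then 11.65 and 11.65 in line A, and at 11.29 and 10.92, then 11.59 and 11.59 in line B, and it rose by 0.53 (SE 0.08, adjusted p = 0.0136). Rragd, a Rag GTPase that places mTORC1 on the lysosome, was at 6.78 and 6.92, then 7.60 and 7.38 in line A, and at 7.00 and 6.90, then 7.33 and 7.27 in line B. It rose by 0.50 (SE 0.08, adjusted p = 0.0214), and also in line A alone by 0.64 (SE 0.11, adjusted p = 0.0482). For both genes the samples with tamoxifen lay above all those without. Over both lines each call was lost without any 1 of the 4 line A samples, with adjusted p-values of up to 0.0827 for Aga and 0.0985 for Rragd. The call of Rragd in line A was lost in 6 of 8 such fits, those without any 1 of the line A samples or of the line B PKM2 samples (adjusted p up to 0.477).

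By role, and against the same shares over all genes, the 11 other measured subunits of the proton pump had a median of 0.27, with 11 of 11 above 0 and 0 passing. The nearest to the threshold was Atp6ap2, the prorenin receptor and a pump accessory protein, with 0.34 (SE 0.08, adjusted p = 0.0831). The other 16 hydrolases had a median of 0.10, with Aga past the threshold. The 14 other membrane proteins had a median of 0.11, with 0 passing. The 24 autophagy genes had a median of 0.09, with 20 above 0 and 0 passing. The 22 genes of the TFEB family and of mTORC1 control had a median of 0.05, with Rragd past the threshold. The 9 genes of mannose 6-phosphate sorting, which sends hydrolases to the lysosome, had a median of 0.02, with 5 above 0 and 0 passing.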

How the data were processed

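RNA of 8 samples was measured on Affymetrix arrays. The deposited log2 values were RMA-normalized by the authors in Affymetrix Expression Console, per the labels, whose version the sources used here do not give. RMA quantile-normalizes the arrays and compresses differences of dim probe sets. The array medians lay between 7.17 and 7.24 and nothing was normalized again. The platform annotation names 1 gene for 21789 of 35556 probe sets, several for 1621 and none for 12146; probe sets with several names were left out. Of 19938 genes, 999 had several probe sets, and the brightest by mean was used.

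All tests are moderated tests of limma 3.58.1 (R 4.3.3), with p-values adjusted over all genes by the Benjamini-Hochberg method and a threshold of 0.05. Tamoxifen over both lines was fitted in an additive model with the line (5 residual degrees of freedom). For the other 5 comparisons the 4 group means were fitted (4 residual degrees of freedom), so each shares its spread with all groups. The fits were run on simulated data with independent noise in each gene, to check that changes of known size were recovered. Those data lack the variation shared by genes within groups here, so error rates under it were not tested.

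The genes and the lists were chosen with earlier results of these data known. Values in every sample are given for 21 genes: Glb1, Tfeb, the member with the smallest p in each role, those past the threshold, the 3 largest and 3 smallest differences over both lines, the 3 smallest p of each other comparison and the 4 widest gaps in line B PKM1. Replicates were numbered in the order of the samples. Alternatives were 2 scalings, a filter on dim genes, a robust variance trend, weights per array, other uses of probe sets, no term for the line, the mean of the effects of each line, fits of 4 samples and each sample left out. The leading within-group axis as a covariate was added after seeing the data. Promoters are from RefSeq on GRCm38.p6.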

Additional observations from a re-analysis of the deposited data

How the results depend on the processing

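The number of the 37 genes past the threshold over both lines depended on how the arrays were weighted. With array weights 9 passed (Ctsf, Ctsl, Ctso, Gla, Hexa, Scarb2, Ppt1, Lipa and Atp6v1a), while the count over all genes went from 263 to 983. With the leading within-group axis as a covariate, an axis estimated from the same samples and added after seeing the data, 8 passed, with 996 over all genes. Leaving out 1 sample at a time gave 0 to 3 of the 37, with 0 without line A PKM2 replicate 2, line A PKM1 replicate 1 or line A PKM1 replicate 2, 3 without line B PKM1 replicate 2 and 2 if line B PKM2 replicate 1 was dropped; over all genes it gave 58 to 353, and with no term for the line 132. In line A 2 of the 37 passed with array weights, 3 with the axis and 3 in the fit of its 4 samples. When every probe set was fitted, 183 probe sets passed there. The counts over all genes in line A were 100 in the main model, and 525, 736 and 543 with the weights, the axis and the 4 samples. In line B they were 4 in the main model, 142 with the axis, 1 with array weights, 2 in its own 4 samples and 0 to 6 with a sample left out. Between the lines without tamoxifen they were 65, and 292 with the axis, 15 in the 4 samples and 4 to 79 with a sample left out. With tamoxifen they were 106, and 463 with the axis and 20 in the 4 samples. When every probe set was fitted, 195 probe sets passed in that comparison.

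The median difference of the 37 ran, with 1 sample left out, from 0.06 to 0.25 over both lines, from 0.14 to 0.27 in line A, from -0.05 to 0.29 in line B, from -0.26 to 0.10 for the difference between the lines and from -0.29 to 0.10 for line B minus line A with tamoxifen. Of the 37, 12 changed sign over both lines in at least 1 of these runs, all among the 36 that did not pass: Atp6ap1 (-0.23 to 0.22), Psap (-0.24 to 0.21), Ctsb (-0.06 to 0.34), Cln3 (-0.15 to 0.06), Mcoln1 (-0.10 to 0.18), Npc1 (-0.09 to 0.14), Lamp1, Glb1, Gaa, Gusb, Naglu and Arsa. The cause was not tested. A fit that leaves a group with 1 sample takes its spread from the other groups. No paired analysis was possible because the labels number no replicates. The number of arrays, 2 per group, limits the precision, and a difference that did not pass is not shown to be absent.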
